A study of Mus musculus with 6 samples.

Results

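The p200 genes, also called HIN-200 or PYHIN genes, form an interferon-inducible family that lies in 1 cluster on mouse chromosome 1. The genes described here are Ifi203, Ifi204, Ifi207, Ifi209, Ifi211, Ifi213, Mndal and Aim2, taken by name from the deposited expression table, in which all 8 were found among 55298 gene identifiers. All 8 also passed a filter that kept 18161 genes with a mean value of at least 3. A further 6 genes of the family are in the table, namely Ifi202b, Ifi205, Ifi206, Ifi208, Ifi214 and the pseudogene Ifi203-ps, and 5 of them passed the same filter. The whole cluster spans 681 kb, from 173350879 to 174031810 on chromosome 1 of the mouse build GRCm38 in the GENCODE M21 annotation.

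Most proteins of the family join a pyrin domain, through which they bind other pyrin proteins, to a HIN domain, which binds double-stranded DNA. Aim2 is the sensor of DNA in the cytosol that gathers the adaptor ASC (Pycard) and caspase-1 (Casp1) into an inflammasome, the complex that matures interleukin-1β and interleukin-18. Ifi204 encodes p204, the mouse relative of human IFI16, which takes part in DNA sensing through STING. Interferons act on such genes through the interferon-stimulated response element (ISRE) and through the gamma-activated site (GAS). In the brain, microglia and invading macrophages are the cells best known for these genes.

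The cells were captured from mouse brain with magnetic beads carrying an antibody against O4, a lipid antigen of the oligodendrocyte lineage, and were not cultured. The EAE group holds 3 pools of 2 mice each, 6 mice in all, of the strain labelled c56Bl/6j, immunised with MOG 35-55, a peptide of myelin oligodendrocyte glycoprotein that induces experimental autoimmune encephalomyelitis, a model of multiple sclerosis. The OVA group holds 3 samples from 4 mice of the same strain given ovalbumin in place of MOG, of which replicate 2 is a pool of 2 mice and replicates 1 and 3 are single mice. All cells were taken when disease was at its peak, and the mice carried no transgene or deletion that the labels name. Age, sex and batch are not given in the labels.

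The table gives regularised logarithms of scaled counts (rlog values) to base 2, in which a gap of 1 stands for a 2-fold difference. Each is shrunk towards the gene's mean where counts are low. The depth behind each sample is unknown. Differences are EAE minus OVA, tested with limma over all 18161 genes, and "rose" is used only of genes with a Benjamini-Hochberg adjusted p under 0.05. With 3 samples in each group, exact permutation could reach 0.1 at the lowest, and the p-values below depend on the variance limma shares among genes.

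The preparations carried the markers of their label and those of other cells. Mbp, myelin basic protein, stood at 17.6 to 17.7 in the EAE pools and at 16.9 to 17.6 in the OVA samples, and Ptprc, the leukocyte antigen CD45, at 11.7 to 11.9 in EAE and 11.1 to 11.8 in OVA. Xist, which silences an X chromosome, read 13.5, 13.6 and 14.2 in EAE replicates 1 to 3 and 7.39, 7.63 and 7.62 in OVA replicates 1 to 3. The Y-linked Ddx3y read 10.2, 10.2 and 9.44 in EAE replicates 1 to 3 and 11.5, 11.4 and 11.3 in OVA replicates 1 to 3. Sex-linked transcripts therefore separated the groups in the same way as the treatment, and the 2 cannot be told apart. In each EAE pool Xist and Ddx3y were both present, so the groups cannot be read simply as female against male. OVA replicate 3 stood apart for neutrophil markers, with a mean of 10.98 over 8 genes, against 7.52 to 8.09 in the EAE pools and 7.91 and 8.27 in the other OVA samples.

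The starts of these genes share a short sequence, which is shown first because most genes of the cluster carry it. RefSeq promoter windows (build GRCm38.p6, 250 bases before to 50 bases after a transcript start) were found for 12 of the 14 p200 genes, and for 7 of the 8 genes described here. Mndal and Ifi203 had a second window. The windows of Aim2 and Mndal lie inside the GENCODE M21 gene models, away from the 5′ ends at 173350879 and 173942491. No window was found for Ifi204 or Ifi203-ps, so the counts below do not cover them. The ISRE-type word GAAANNGAAA, searched on both strands, lay in the windows of Ifi203, Ifi207, Ifi211, Ifi213 and Mndal, thus in 5 of 7, against 3.44% of the 32851 windows of all genes. It also lay in those of Ifi205, Ifi206, Ifi208 and Ifi214. The GAS-type word TTCNNNGAA, which is its own reverse complement, was in 0 of these 7 and in Ifi202b, against 8.3% of all windows. The 150 bases before the start are given below, 5′ to 3′ on the strand of the gene, for Ifi207, Ifi211, Ifi213 and Ifi203 as genes with the word, for Ifi205 as the family member with the largest difference, and for Ifi209 and Aim2 as genes without it. Capitals mark the ISRE-type word and, in Ifi209, the near match described after the sequences.
Ifi207 (chr1:173741810-173741959, minus strand): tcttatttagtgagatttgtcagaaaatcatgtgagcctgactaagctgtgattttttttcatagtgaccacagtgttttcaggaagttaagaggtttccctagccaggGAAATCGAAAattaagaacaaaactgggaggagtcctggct
Ifi211 (chr1:173913047-173913196, minus strand): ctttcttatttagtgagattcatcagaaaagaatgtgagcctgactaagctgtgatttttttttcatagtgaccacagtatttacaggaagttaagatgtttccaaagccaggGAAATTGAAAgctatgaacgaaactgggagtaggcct
Ifi213 (chr1:173599273-173599422, minus strand): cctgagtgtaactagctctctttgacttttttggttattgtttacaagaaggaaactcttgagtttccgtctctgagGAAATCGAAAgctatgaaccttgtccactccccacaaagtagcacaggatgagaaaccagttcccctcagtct
Ifi203 (chr1:173942493-173942642, minus strand): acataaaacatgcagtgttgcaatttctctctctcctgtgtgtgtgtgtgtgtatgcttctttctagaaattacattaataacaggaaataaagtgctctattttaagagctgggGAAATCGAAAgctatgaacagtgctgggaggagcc
Ifi205 (chr1:174031756-174031905, minus strand): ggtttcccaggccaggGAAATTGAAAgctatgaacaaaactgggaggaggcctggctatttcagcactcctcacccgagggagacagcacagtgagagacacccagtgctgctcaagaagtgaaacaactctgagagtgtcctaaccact
Ifi209 (chr1:173630709-173630858, plus strand): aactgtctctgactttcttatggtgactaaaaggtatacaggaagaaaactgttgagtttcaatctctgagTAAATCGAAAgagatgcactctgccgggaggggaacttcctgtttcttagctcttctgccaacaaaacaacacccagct
Aim2 (chr1:173420454-173420603, plus strand): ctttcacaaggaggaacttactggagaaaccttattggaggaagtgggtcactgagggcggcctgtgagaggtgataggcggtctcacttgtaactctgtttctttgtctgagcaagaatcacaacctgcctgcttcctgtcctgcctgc

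The printed word was nearly the same in every gene that had it. GAAATCGAAA, a word looked for after the windows had been read, occurred in 16 of the 32851 windows, and 7 of those 16 belonged to p200 genes, namely Ifi203, Ifi206, Ifi207, Ifi208, Ifi213, Ifi214 and Mndal. Ifi211 and Ifi205 carried it with the substitution C6T, counted from 1 at the 5′ end of the word. Ifi209 carried it with G1T, 79 bases before its start, where Ifi214 had the full word at the same distance. In Ifi203, Mndal, Ifi211, Ifi206 and Ifi207 the word began 35, 36, 37, 40 and 41 bases before the start, and in Ifi208 and Ifi213 it began 58 and 73 bases before it. Windows of different genes also shared longer runs, of 182 bases between Ifi206 and Ifi208, 139 between Mndal and Ifi203 and 109 between Ifi214 and Ifi209, so the words are not independent of each other. A match is a description of the letters and not a measured binding site, and the window of Aim2 says only that these letters are not in it.

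**Figure D1:**
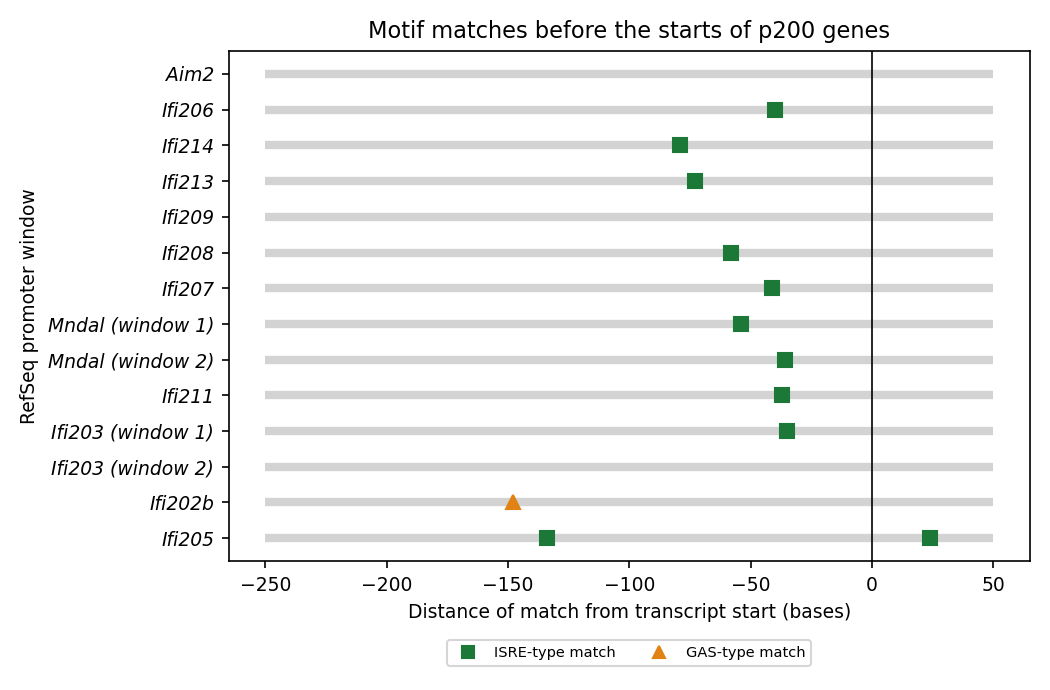
Positions of the ISRE-type and GAS-type words in the 14 RefSeq promoter windows of 12 p200 genes; grey bars run from 250 bases before to 50 bases after the transcript start, drawn at 0. Green squares cluster between 35 and 79 bases before the start in 8 genes, Ifi205 has 1 farther away and another after the start, and Aim2, Ifi209 and Ifi202b have no green square.

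In the EAE pools, 4 of the 8 genes rose, 0 fell by limma and 4 did not pass the test, at a background of 1.72% of all tested genes higher and 0.666% lower. The 4 were Ifi204, Ifi211, Ifi213 and Ifi207, with rises of 3.46-fold, 2.83-fold, 2.49-fold and 2.27-fold. All 8 differences lay above 0, with a median of 1.16, against a median of -0.00243 and 49.3% above 0 over all tested genes, and 7 were higher at an unadjusted p under 0.05, against 9.17% of all tested genes (16.3% in either direction). Every EAE pool lay above every OVA sample for 5 of the 8 genes, against 12.1% of all tested genes. Aim2 differed least. In such bulk samples, more cells of a type and more RNA per cell cannot be told apart.

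Ifi204 (ENSMUSG00000073489.6, 173747293 to 173766943), the DNA sensor p204, read 9.83, 9.74 and 9.07 in EAE replicates 1 to 3 and 7.71, 7.47 and 8.08 in OVA replicates 1 to 3. The groups did not overlap, and replicate 3 was the lowest EAE pool and the highest OVA sample. The difference was 1.79 ± 0.23 (SE; limma adjusted p = 0.0141), and 0.259% of all tested genes had a larger one.

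Ifi211 (ENSMUSG00000026536.9, 173896345 to 173913046) read 7.64, 7.54 and 6.79 in EAE replicates 1 to 3 and 5.69, 5.73 and 6.05 in OVA replicates 1 to 3. Its groups were again separate, and its difference was 1.50 ± 0.23 (SE; limma adjusted p = 0.0227). Ifi211 is also the gene whose reads are hardest to assign. Of the distinct 50-base words in its GENCODE transcripts, 72.8% also occur in transcripts of other genes, above all Ifi205, with 44.7% of the words, and Ifi204, with 30.1%.

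Ifi213 (ENSMUSG00000073491.11, 173566283 to 173599274) read 8.39, 8.38 and 7.82 in EAE replicates 1 to 3 and 6.92, 6.42 and 7.31 in OVA replicates 1 to 3. It had the lowest level per kilobase of exon in both groups, and its samples did not overlap. The difference was 1.31 ± 0.25 (SE; limma adjusted p = 0.0419).

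Ifi207 (ENSMUSG00000073490.11, 173723427 to 173741747) read 9.60, 9.48 and 8.97 in EAE replicates 1 to 3 and 8.04, 8.12 and 8.34 in OVA replicates 1 to 3. Its OVA samples lay closest together among the 4 genes that rose, with an SD of 0.15. The difference was 1.18 ± 0.17 (SE; limma adjusted p = 0.0204), and 7.29% of its 50-base words are shared with other genes.

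Ifi209, Ifi203 and Mndal lay higher in EAE without passing the test. Ifi209 (ENSMUSG00000043263.13, 173630917 to 173647928) read 9.18, 9.11 and 8.49 in EAE replicates 1 to 3 and 7.50, 7.34 and 8.55 in OVA replicates 1 to 3. OVA replicate 3 thus exceeded EAE replicate 3, and the difference of 1.13 ± 0.33 (SE) had a limma adjusted p of 0.139 with a 95% interval from 0.37 to 1.90. Its counts are uncertain too, since 33.4% of its 50-base words occur in Ifi214. Ifi203 (ENSMUSG00000039997.16, 173920407 to 173942672) read 9.68, 9.77 and 9.38 in EAE replicates 1 to 3 and 8.65, 8.65 and 9.32 in OVA replicates 1 to 3, so that the groups lay close without overlapping. Its difference was 0.74 ± 0.20 (SE; limma adjusted p = 0.114). Mndal (ENSMUSG00000090272.9, 173849126 to 173942491), named for its likeness to the human myeloid nuclear differentiation antigen, read 9.26, 9.31 and 8.86 in EAE replicates 1 to 3 and 8.31, 8.36 and 8.97 in OVA replicates 1 to 3. Here OVA replicate 3 lay above EAE replicate 3, and the difference was 0.59 ± 0.20 (SE; limma adjusted p = 0.199). In GENCODE M21 a transcript of Mndal reaches into Ifi203 on the same strand, and the exons of the 2 genes share 37 bases.

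Aim2 (ENSMUSG00000037860.15, 173350879 to 173466040), the inflammasome sensor, read 9.93, 9.90 and 9.996 in EAE replicates 1 to 3 and 9.99, 9.75 and 9.73 in OVA replicates 1 to 3. The groups overlapped, with OVA replicate 1 above EAE replicates 1 and 2. The difference was 0.12 ± 0.09 (SE; limma adjusted p = 0.572), with a 95% interval from -0.10 to 0.33, which leaves out a 2-fold rise. Aim2 shares the least sequence with other genes of the 8, with 0.742% of its 50-base words.

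**Figure D2:**
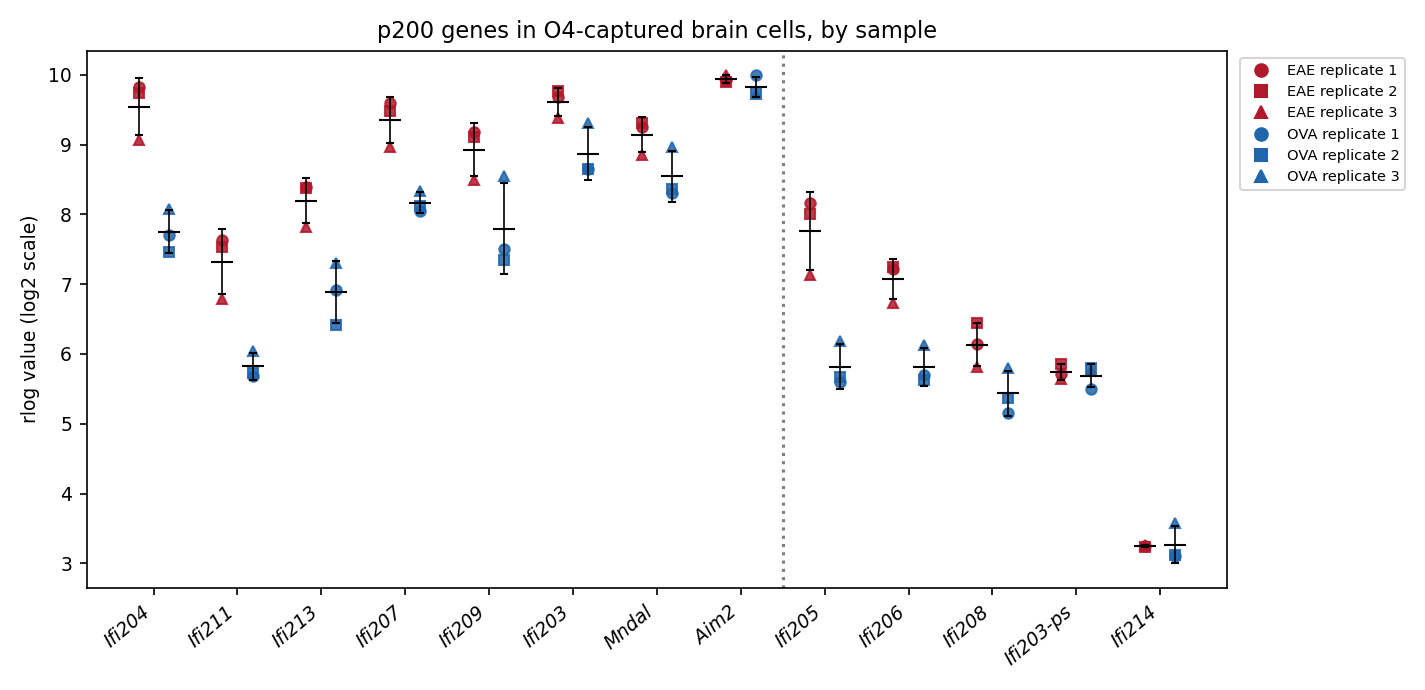
The rlog value (log2 scale) of 13 p200 genes in each of the 6 samples, EAE in red and OVA in blue, with the mean and SD of each group as black bars; the dotted line separates the 8 genes described from 5 others of the family. EAE replicate 3 is the lowest red point in 7 of the 8 genes, OVA replicate 3 is the highest blue point in 7 of the 8, and the 6 points of Aim2 lie together.

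Of the 5 other family members tested, 2 rose, against 1.72% of all tested genes. Ifi205, which in macrophages is known to act on the expression of the inflammasome adaptor ASC, had the largest difference of the cluster. It read 8.17, 8.01 and 7.13 in EAE replicates 1 to 3 and 5.59, 5.67 and 6.18 in OVA replicates 1 to 3, a 3.86-fold rise (difference 1.95 ± 0.28, SE; limma adjusted p = 0.0204). Ifi206 read 7.22, 7.25 and 6.74 in EAE replicates 1 to 3 and 5.70, 5.62 and 6.13 in OVA replicates 1 to 3, a 2.39-fold rise (limma adjusted p = 0.0215). Ifi208 differed by 0.70 ± 0.20 (SE; limma adjusted p = 0.142), with the lowest EAE pool at 5.82 and the highest OVA sample at 5.79. The pseudogene Ifi203-ps differed by 0.05 ± 0.11 and Ifi214 by -0.02 ± 0.12 (SE; limma adjusted p = 0.873 and 0.962), and Ifi214 lay near the filter at 3.23 to 3.26 in EAE and 3.11 to 3.57 in OVA. Ifi202b, a member without a pyrin domain that is known to be barely expressed in C57BL/6 mice, is listed at 0 in all 6 samples. Such a 0 may not mean absence, since Trex1, a DNA-degrading enzyme of most cells, is listed at 0 as well.

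The 3 largest differences of the cluster belonged to Ifi205, Ifi204 and Ifi211, which share much of their sequence: Ifi205 shares 18.5% of its 50-base words with Ifi211, and Ifi204 shares 14.8%. With 100-base words, 56.9% of Ifi211, 15% of Ifi205 and 10.7% of Ifi204 were still shared with other genes. Reads from such stretches can be dropped or credited to the wrong gene, and the sources used here do not give how the authors treated them. Whether this sharing moved the 3 values together was not tested.

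**Figure D3:**
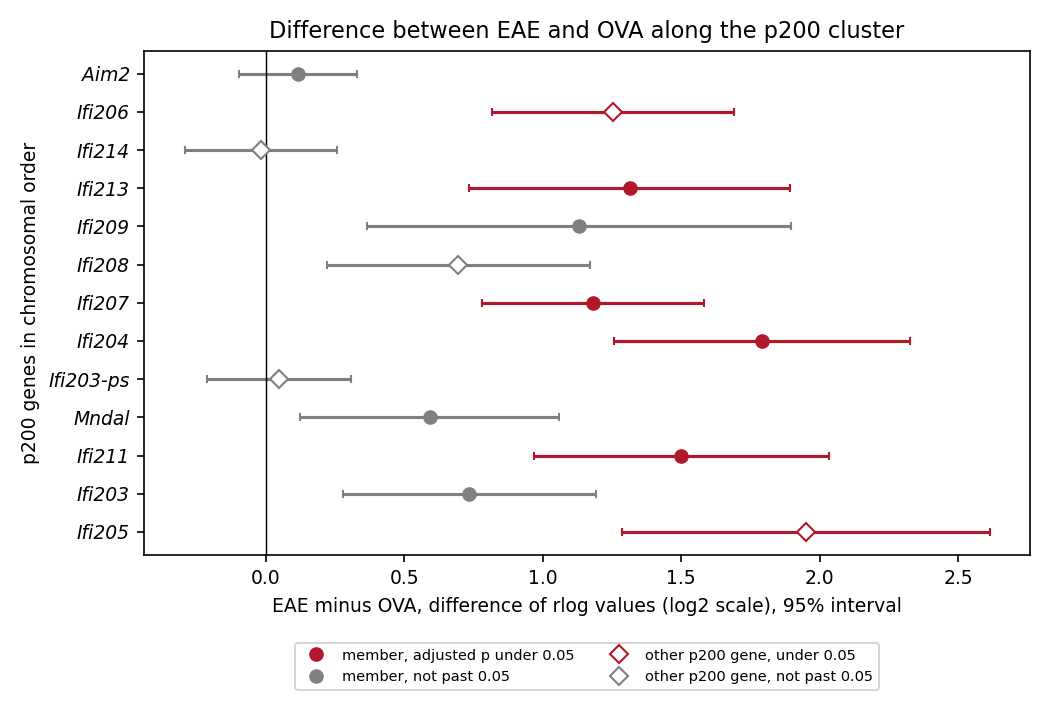
Difference EAE minus OVA in rlog value (log2 scale) with its 95% interval from limma for 13 p200 genes in chromosomal order from top to bottom; filled circles are the 8 genes described, open diamonds other family members, and red marks an adjusted p under 0.05. Ifi214, near 0, lies between Ifi206 and Ifi213, which are past the threshold, while Ifi207 and Ifi204, both past it, are neighbours, and Aim2 lies at the end of the cluster with a difference of 0.12.

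Levels were compared between genes after subtracting the log2 of the exon length in kilobases, which gives an rlog level per kilobase. In the EAE pools the order was Aim2 (8.13), Ifi204 (7.71), Ifi207 (7.58), Mndal (7.28), Ifi209 (7.10), Ifi203 (6.86), Ifi211 (6.49) and Ifi213 (5.42). In the OVA samples it was Aim2 (8.02), Mndal (6.69), Ifi207 (6.39), Ifi203 (6.13), Ifi209 (5.97), Ifi204 (5.92), Ifi211 (4.99) and Ifi213 (4.11). Aim2 stood first and Ifi213 last in both groups, while Ifi204 came next after Aim2 in EAE and after 5 other genes in OVA. In EAE the neighbours from Ifi204 down to Ifi211 differed by no more than the larger SD of each pair, and so did those in OVA from Mndal down to Ifi204. Mndal was counted on a gene model with another version number than that in M21, so its length is approximate. The length of each gene was that of all its annotated exons, whichever transcripts were present. Reads from shared sequence may have been dropped, with 0.742% of the 50-base words shared for Aim2 and 72.8% for Ifi211. The order is therefore approximate.

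The samples of a group were not alike. EAE replicate 3 was the lowest EAE pool for 7 of the 8 genes, all except Aim2, against 34.2% of all tested genes. OVA replicate 3 was the highest OVA sample for the same 7, against 40.2% of all tested genes. The mean over the 8 genes was 9.19, 9.15 and 8.67 in EAE replicates 1 to 3 and 7.85, 7.73 and 8.29 in OVA replicates 1 to 3. EAE replicate 3 was also the pool with the most Xist and the least Ddx3y, and OVA replicate 3 had the highest neutrophil marker mean of the 6 samples. The mean over 14 monocyte and macrophage markers was 10.96, 10.67 and 10.28 in EAE replicates 1 to 3 and 8.65, 8.73 and 9.85 in OVA replicates 1 to 3, so that replicate 3 was the lowest EAE pool and the highest OVA sample there too. The same held for the means of general myeloid and leukocyte, dendritic cell, T cell and neutrophil markers. It did not hold for markers of microglia at rest, B cells, astrocytes, endothelial cells, oligodendrocytes or neurons. OVA replicate 3 also had the highest B cell marker mean, 8.69. The part of these in the result was not tested.

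The number of calls differed with the sample left out. When replicate 1 or 2 of EAE was left out, limma called 0 of the 8 genes, with 6 of them at an unadjusted p under 0.05 each time, at backgrounds of 0.463% and 0.132% of genes called higher. When replicate 1 or 2 of OVA was left out it again called 0, with 7 and 6 at an unadjusted p under 0.05, at backgrounds of 0.545% and 0.165%. Without EAE replicate 3, Ifi204, Ifi207, Ifi211 and Ifi213 passed, at a background of 1.57%. Without OVA replicate 3, 7 passed, all except Aim2, at a background of 4.68%. Ifi204 came closest to the threshold whenever it was missed, with an adjusted p of at most 0.076, and its difference ranged from 1.65 to 2.03.

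**Figure D4:**
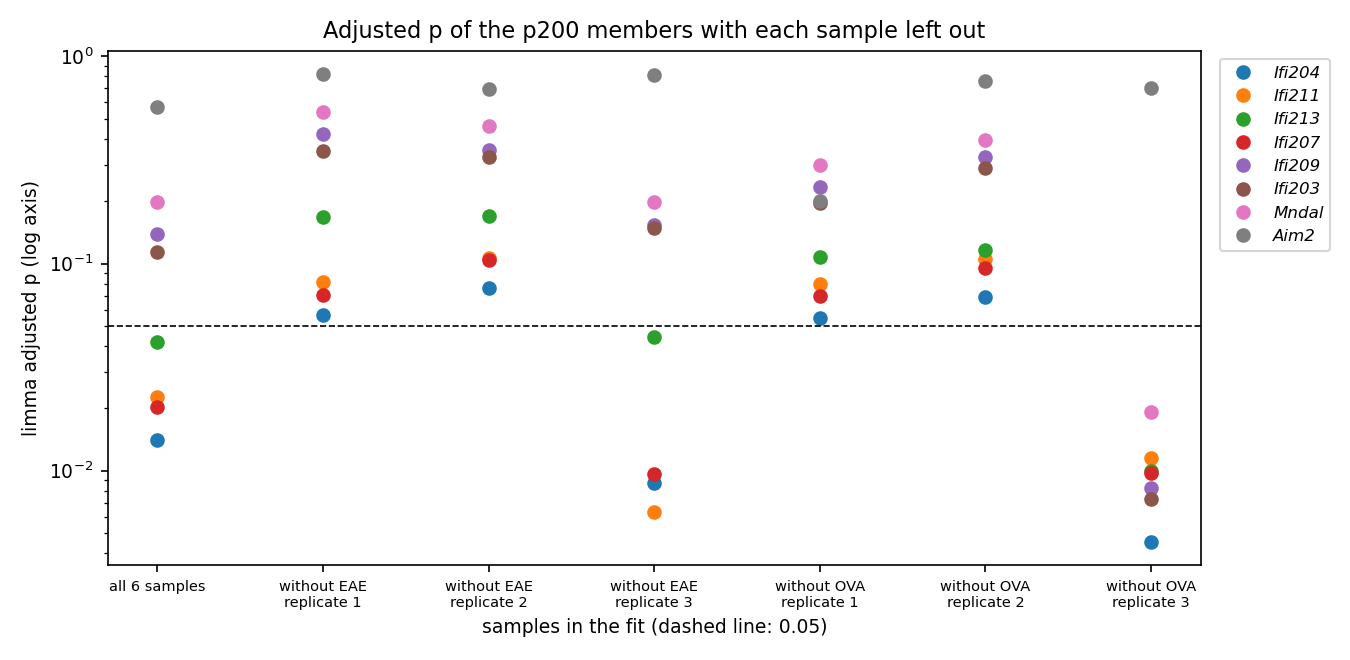
Adjusted p from limma (log axis) of the 8 p200 genes with all 6 samples and with each sample left out, with 0.05 as a dashed line. All genes lie above the line in 4 of the 6 reduced fits, 4 genes lie below it without EAE replicate 3, and 7 do so without OVA replicate 3.

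Genes listed around the Aim2 inflammasome, called the Aim2 pathway here, differed in part. The list held 14 genes, of the inflammasome, of interleukin-1 and interleukin-18, and of others that are neither. Among those others were Casp4, Casp12, Nek7, Txnip, Ninj1 and the inhibitors Il1rn and Il18bp. Of the 14, 4 rose and 0 fell by limma, against 1.72% and 0.666% of all tested genes, at a median difference of 0.49. An unadjusted p under 0.05 was found for 9, 8 of them higher and 1 lower, against 16.3% of all tested genes. The lower one, Txnip, named after its value was seen, differed by -0.41 ± 0.09 (SE; limma adjusted p = 0.0747), with every EAE pool below every OVA sample. The 4 that rose were Il1rn, the interleukin-1 receptor antagonist (11.8-fold, limma adjusted p = 0.0108), Il1a (3.21-fold, 0.0244), Il1b (2.77-fold, 0.0439) and Il18bp, the interleukin-18 inhibitor (1.86-fold, 0.0215). The rule for naming genes took the first 3, and Il18bp was added after its value was seen. The RNA of Pycard and Casp1, whose proteins assemble with Aim2, did not pass the test, nor did that of the pore-forming Gsdmd. Pycard differed by 0.78 ± 0.16 (SE, limma adjusted p = 0.0538), Casp1 by 0.48 ± 0.14 (0.142) and Gsdmd by 0.38 ± 0.12 (0.182). For Pycard and Casp1 every EAE pool lay above every OVA sample, against 12.1% of all tested genes, and for Gsdmd the groups overlapped.

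Over all tested genes, 1.72% rose and 16.3% had an unadjusted p under 0.05 in either direction. Of 8 sensors that build other inflammasomes, 1 rose, Nlrp1b, by 0.50 ± 0.10 (SE; limma adjusted p = 0.0495), and 6 had an unadjusted p under 0.05. Of 13 tested genes listed in and around DNA sensing through cGAS and STING, 2 rose and 0 fell by limma. An unadjusted p under 0.05 was found for 4, and the median difference was 0.20. The 2 were Zbp1 (4.21-fold, limma adjusted p = 0.0263) and Ikbke, a kinase that activates IRF3 (2.50-fold, 0.0112). Zbp1 is a sensor of Z-form nucleic acid that is itself induced by interferon, and is not a step of the cGAS and STING route. The DNA sensor Cgas differed by 0.25 ± 0.17 and the adaptor Tmem173, which encodes STING, by 0.33 ± 0.14 (SE; limma adjusted p = 0.516 and 0.31), both chosen after their values were seen.

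A list of interferon signalling held 16 tested genes, of interferons, their receptors, Janus kinases, STAT and IRF factors, and Spi1. Of these, 5 rose, 0 fell by limma and 12 had an unadjusted p under 0.05, against 16.3% of all tested genes. Among them, the transcription factor genes Irf1 and Irf8 rose 2.46-fold and 1.91-fold (limma adjusted p = 0.0407 and 0.0252). Others were named after their values were seen. Ifng rose 1.36-fold and Stat2 1.79-fold (limma adjusted p = 0.0246 and 0.0385). Irf7 differed by 1.52 ± 0.31 (SE, limma adjusted p = 0.0534) without passing. Ifnb1, interferon beta, lay below the filter at 0.44 to 0.51 in EAE and 0.44 in OVA and was not tested. Ifng, interferon gamma, was low, at 4.32 to 4.48 in EAE and 3.89 to 4.00 in OVA. These lists were chosen with earlier results of these data known, and their counts are a description beside the background of 1.72%.

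Markers of the cells that can carry p200 RNA moved as well, at a background of 1.72% of all tested genes higher and 0.666% lower. Of 10 general myeloid and leukocyte markers 5 rose, led by Ctss (2.82-fold) and Cd68 (2.30-fold), and the log2 of their summed level was 15.8 to 15.9 in EAE and 15.0 to 15.3 in OVA. Of 14 monocyte and macrophage markers 5 rose, led by Arg1 (29.1-fold) and Gpnmb (21.2-fold), with summed levels of 15.8 to 16.4 in EAE and 14.7 to 15.7 in OVA. The other 9 did not pass, among them Ly6c2, Ccr2, Plac8 and Chil3, whose groups overlapped. Only Ifitm6 lay below 0, at -0.99 (limma adjusted p = 0.454). Of 11 markers of microglia at rest 3 fell, led by P2ry12 (2.02-fold) and Fcrls (1.85-fold), with summed levels of 14.4 to 14.9 in EAE and 14.9 to 15.2 in OVA. None of the markers in these 3 lists was at 0.

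Of 9 dendritic cell markers, Itgax rose 3.87-fold and Cd209a fell 1.59-fold, with summed levels of 11.4 to 11.8 in EAE and 10.7 to 11.2 in OVA. Of 12 T cell markers 6 rose, led by Il2rb (2.46-fold) and Icos (2.06-fold), with summed levels of 10.1 to 10.3 in EAE and 9.19 to 9.54 in OVA. Of 8 B cell and 8 neutrophil markers limma called 0, with 0 and 1 at an unadjusted p under 0.05. The neutrophil granule gene Ngp read 7.88 to 8.73 in EAE and 9.23 to 13.6 in OVA, and the B cell factor Ebf1 read 8.96 to 9.54 in EAE and 9.41 to 10.4 in OVA. Of 8 astrocyte markers, Gfap rose 2.55-fold and 5 fell, led by Slc4a4 (2.20-fold). Of 9 endothelial markers limma called 0, with 5 at an unadjusted p under 0.05, and all 9 differences lay below 0. Of 8 neuronal markers limma also called 0, with 1 at an unadjusted p under 0.05, where 16.3% of all tested genes had one. Of 13 oligodendrocyte lineage genes limma also called 0, with 1 at an unadjusted p under 0.05, at summed levels of 20.2 to 20.4 in EAE and 19.8 to 20.3 in OVA. The part of these cell types in the p200 differences was not tested.

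**Figure D5:**
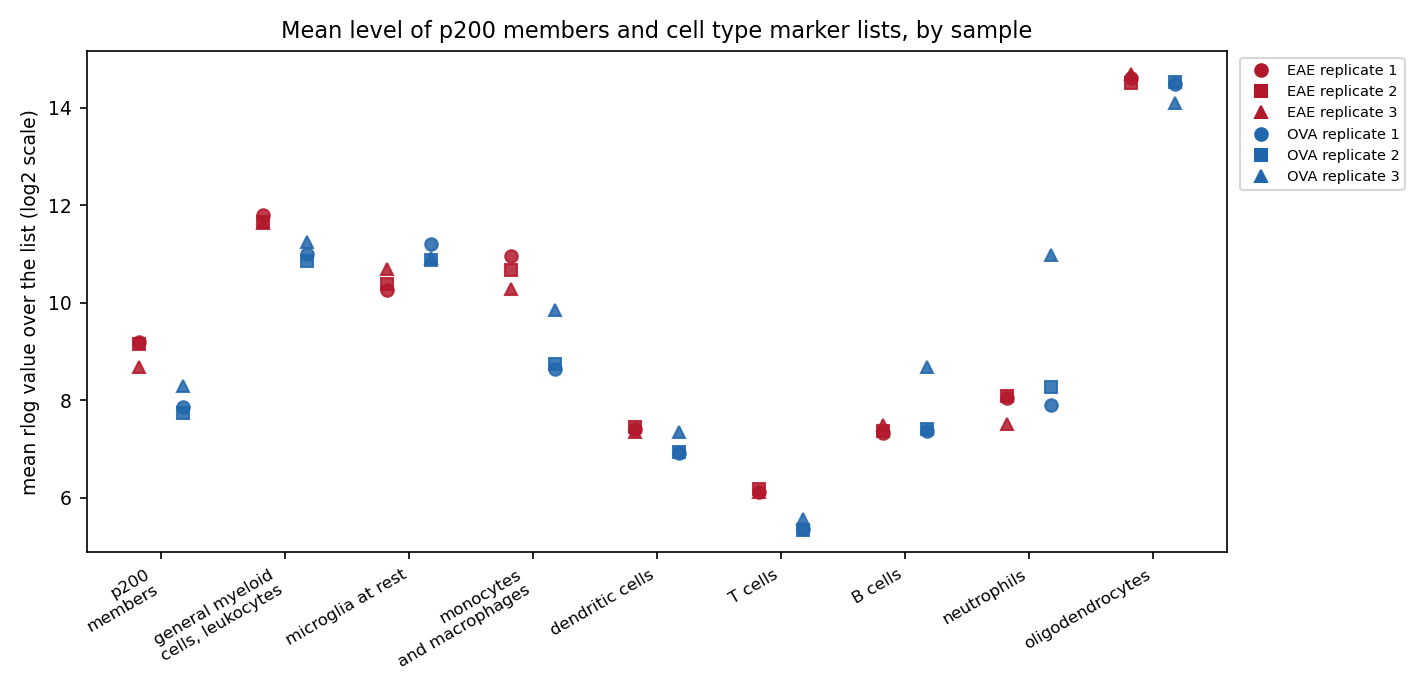
Mean rlog value (log2 scale) over the 8 p200 genes and over 8 cell type marker lists in each sample, EAE in red and OVA in blue. The p200 mean lies at 8.67 to 9.19 in EAE and 7.73 to 8.29 in OVA; myeloid, monocyte and T cell means are also higher in every EAE pool, microglia at rest are lower, and OVA replicate 3 stands out for neutrophils and B cells.

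Outside the family, the tested protein-coding genes whose course over the 6 samples was most like the mean course of the 8 genes were Nfkbie, H2-Q4, Gpr132, Psmb9 and Oas1a. Likeness was the root mean square difference after each gene's own mean was subtracted, and it was 0.051 for Nfkbie and 0.085, 0.085, 0.087 and 0.087 for the others. Nfkbie encodes an inhibitor of NF-kappaB, H2-Q4 a class I MHC chain, Psmb9 an immunoproteasome subunit and Oas1a an interferon-induced antiviral synthetase. Among the 8 genes themselves, whose mean includes Aim2, the same measure ran from 0.126 for Ifi207 to 0.548 for Aim2. The outside genes were the closest of 15204 searched, whereas the 8 were not chosen by likeness, so these ranges are not comparable.

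Of the genes around the cluster, 1 passed the test, at a background of 1.72% of all tested genes higher and 0.666% lower. Within 1 Mb on either side, 15 other genes were tested, with a median difference of -0.03, and 0 tested genes outside the family lay within the cluster. Slamf8 (172581758 to 172590568), a receptor of myeloid cells, was the 1 neighbour that rose, at 9.48, 9.11 and 8.57 in EAE replicates 1 to 3 and 6.90, 6.84 and 7.15 in OVA replicates 1 to 3 (4.26-fold; limma adjusted p = 0.00806). The lowest difference was -0.63, for the chemokine-binding receptor Ackr1 (limma adjusted p = 0.327).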

How the data were processed

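The kit for the 6 libraries was TruSeq Stranded mRNA, per the labels' protocols. Listed without roles in the submitters' processing notes are DESeq2 1.24.0, Subread 1.6.1, STAR 2.6.1c, cutadapt 1.18, bcl2fastq 2.17 and the build GRCm38. The deposited table holds 1 log2 value per gene and sample, which its name marks as the authors' rlog of scaled read counts; the strand setting, the treatment of reads with several matches and the annotation release are not given in the sources used here. It gives no counts, so no counting interval can be stated. Samples were grouped by treatment as labelled and numbered within a group in accession order. Nothing says that the samples were prepared separately after pooling. The p-values set the group difference against the spread between these samples, with a variance that limma moderates across genes. Pools and single mice were given equal weight in the main fit.

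Identifiers were matched to symbols and GENCODE M21 positions without their version (55117 of 55298, of which 54550 had the same version), and a repeated symbol stood for its identifier with the highest mean. Genes with a mean rlog of at least 3 were fitted with limma 3.58.1 in R 4.3.3 with an intensity trend, two-sided, and adjusted over all 18161. The test was tried on simulated data first. The genes and lists were chosen with earlier results of these data known. From each pathway list the 3 largest differences past the threshold were named, from each cell type list 2, or else the smallest p. One gene that the rule names is not reported here.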

Additional observations from a re-analysis of the deposited data

How the results depend on the processing

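For the 13 p200 genes tested, all calls held without a filter, with each sample shifted to a common median, with quantile normalisation, without the intensity trend and with robust moderation, and 12 could be compared, with the same calls, at a minimum mean of 5. Array quality weights could not be fitted by the planned method, which did not converge, and a gene-by-gene version chosen after seeing the data gave 7 of the 8 genes higher, 1035 genes higher (5.7% of those tested) and 433 lower in all, 8 Aim2 pathway genes, 6 other inflammasome sensors and 11 interferon signalling genes. The 1 inflammasome sensor became 0 without a filter. Leaving out single samples gave 0 to 7 of the 8 genes higher and 0 lower, 24 to 850 genes higher and 1 to 346 lower in all, 0 to 3 other p200 genes, 0 to 8 Aim2 pathway genes, 0 to 4 other inflammasome sensors, 0 to 3 DNA sensing genes and 0 to 9 interferon signalling genes. Ifi214 and Ifi203-ps, both near 0, changed sign: Ifi214 was at 0.0828 with the weights and between -0.0947 and 0.14 when single samples were left out, and Ifi203-ps was between -0.0448 and 0.103. The causes were not tested. No paired analysis was possible because the replicate numbers follow the order of the samples and pair nothing. The depth is unknown, so what it limits cannot be stated.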
